A study of Homo sapiens with 6 samples.

Results

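Transcripts of 36 genes of homologous recombination and the Fanconi anemia pathway were examined in PC3 cells by RNA sequencing. The genes were taken by symbol from the count tables, all 36 of 36 were found among 24462 gene symbols, and all 36 passed the filter on low counts. PC3 is an androgen-independent human prostate cancer cell line that was derived from a metastasis. Cultures received either a non-targeting siRNA (si-Control, 3 libraries) or an siRNA against the coactivator CITED2 (si-CITED2, 3 libraries), each at 80 nM, and RNA was collected after 72 h to look for transcripts that depend on CITED2. No other agent or allele separates the groups, the whole experiment rests on this single cell line, the methods list a single siRNA sequence for CITED2, and the study describes its 3 experiments as independent.

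Homologous recombination repairs a DNA double-strand break by copying the sister chromatid, so it operates mainly in S and G2 phase. The ends are trimmed to single strands, which are covered by replication protein A and prepared for strand exchange by the BRCA proteins and a group of paralogs (RAD51B, RAD51C, RAD51D, XRCC2 and XRCC3), while the kinases ATM and ATR signal the damage. The Fanconi proteins act on crosslinks between the strands of DNA: a core complex attaches ubiquitin to FANCD2 and FANCI, and the lesion is then unhooked and handed to recombination. Many of these genes are known to be transcribed mainly in cycling cells, in part under E2F factors.

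The check of the labels came first. CITED2 mRNA stood at 36.4, 37.9 and 32.8 CPM (the library-scaled unit of all levels here: a gene's share of its library's counts, scaled to 1000000) in the si-Control libraries. In the libraries labelled si-CITED2 it stood at 46.0, 39.1 and 41.8 CPM. The targeted transcript was therefore higher, not lower, where the label names the siRNA against it (log2 fold change 0.24, SE 0.074, adjusted p = 0.0363 in edgeR's quasi-likelihood test; exact two-sided permutation p = 0.1, the smallest that 3 against 3 libraries allow). Without library scaling by TMM the adjusted p for CITED2 was 0.0518, and it was 0.0536 without si-Control replicate 1, 0.141 without si-Control replicate 3, 0.154 without the library labelled si-CITED2 replicate 1 and 0.0846 without replicate 3. All directions given here follow the labels, against this gene. For the knockdown itself the study relied on CITED2 protein, by immunoblot, which was not analysed here.

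Library totals ran from 19508925 to 28936374 counts, so that 3 counts corresponded to 0.104 to 0.154 CPM. The members averaged between 74 and 6931 counts per library, far above that floor. Of the 5 epithelial markers (KRT8, KRT18, KRT19, EPCAM, CDH1) each was present, with summed levels of 1798 to 1915 CPM in si-Control and 1949 to 2129 CPM in the libraries labelled si-CITED2, and 4 of the 5 passed the test in differing directions. KRT8 and KRT18 were higher in the libraries labelled si-CITED2 (log2 fold change 0.24 and 0.18), while EPCAM (−0.33, adjusted p = 0.0011) and CDH1, the epithelial cadherin (−0.52, adjusted p = 1.67e-05), were lower, so the sum follows the abundant keratins. The study reports that CITED2 lowered epithelial markers, with E-cadherin mRNA measured by RT-qPCR. The fall of CDH1 where the label names the siRNA against CITED2 is opposite to that direction. KLK3, the prostate secretory marker that PC3 is known to lack, was at or near 0. Summed markers of other cells stayed at or below 2.60 CPM for leukocytes, 7.44 CPM for fibroblasts and 0.957 CPM for endothelium. The 5 erythroid genes summed to 0.0377 to 0.205 CPM in si-Control and 4.74 to 6.0 CPM in the libraries labelled si-CITED2; HBA1, HBA2 and HBB passed the test and AHSP was at 0 throughout. The part of these differences in the results given here was not tested.

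The upstream sequences are shown for the 4 members with the smallest adjusted p among those with an entry in RefSeq (GRCh38.p14). Each is read 5′ to 3′ on the strand of the gene and ends before the first annotated exon base of a coding transcript, which leaves out the 23 or 24 bases nearest the start for EXO1, CHEK2 and FANCD2 and the 119 nearest for BRCA1. Capitals mark CCAAT (or ATTGG, its reverse), the box of NF-Y, and GGGCGG, the GC box of SP1; the E2F letters, which are spelled out with the promoters at the end, did not occur in the stretches as shown, and the BRCA1 match given there lies in the bases left out here.
EXO1 upstream window, chr1:241847954-241848179, plus strand: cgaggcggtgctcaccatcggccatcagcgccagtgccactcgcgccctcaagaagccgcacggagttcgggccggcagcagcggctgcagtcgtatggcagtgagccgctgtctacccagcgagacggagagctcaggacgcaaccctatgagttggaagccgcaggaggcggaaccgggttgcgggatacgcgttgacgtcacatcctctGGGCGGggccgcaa
CHEK2 upstream window, chr22:28741845-28742070, minus strand: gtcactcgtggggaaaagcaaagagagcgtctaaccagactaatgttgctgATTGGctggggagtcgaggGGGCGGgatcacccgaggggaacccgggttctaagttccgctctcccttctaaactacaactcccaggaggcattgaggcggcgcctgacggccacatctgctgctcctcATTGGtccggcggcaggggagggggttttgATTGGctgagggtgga
FANCD2 upstream window, chr3:10026187-10026413, plus strand: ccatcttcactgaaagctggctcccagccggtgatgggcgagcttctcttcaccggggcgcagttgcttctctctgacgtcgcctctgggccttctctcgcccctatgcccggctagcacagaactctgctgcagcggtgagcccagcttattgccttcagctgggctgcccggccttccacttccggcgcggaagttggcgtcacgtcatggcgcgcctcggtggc
BRCA1 upstream window, chr17:43125484-43125614, minus strand: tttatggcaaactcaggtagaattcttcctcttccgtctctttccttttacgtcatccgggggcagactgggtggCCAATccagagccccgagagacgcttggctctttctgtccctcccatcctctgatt
EXO1 held 1 GC box, CHEK2 held 3 CCAAT boxes with 1 GC box, BRCA1 held 1 CCAAT box, and FANCD2 held neither. A match describes letters and is no evidence of binding.

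The members were either lower in the libraries labelled si-CITED2 or did not pass the test. At an adjusted p under 0.05, 16 of 36 were lower and 0 were higher. Over all 16314 genes tested, 8.09% were lower and 9.36% were higher, or 17.4% in either direction. The members, like the lists below, were chosen with earlier results of these data known, so such contrasts are no test of them. DESeq2 also called 0 members higher, and 0 members were higher at an unadjusted p under 0.05 in edgeR, against 23 lower. The share of all genes tested at that unadjusted threshold is not given, here or for the lists below, so these counts have no background to be set against. The 16 called members fell by 12.2% to 32.8%, with log2 fold changes from −0.57 to −0.19. The median log2 fold change of the 36 members was −0.19, beside −0.0014 over all genes tested. In 24 of 36 members all 3 libraries labelled si-CITED2 lay below all 3 si-Control libraries, and FANCF alone lay above; such separation occurred in 16.1% of all genes tested downward and 16.4% upward, 32.5% in all. These are bulk libraries, in which fewer cells expressing a gene and less RNA per cell cannot be told apart.

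**Figure D1:**
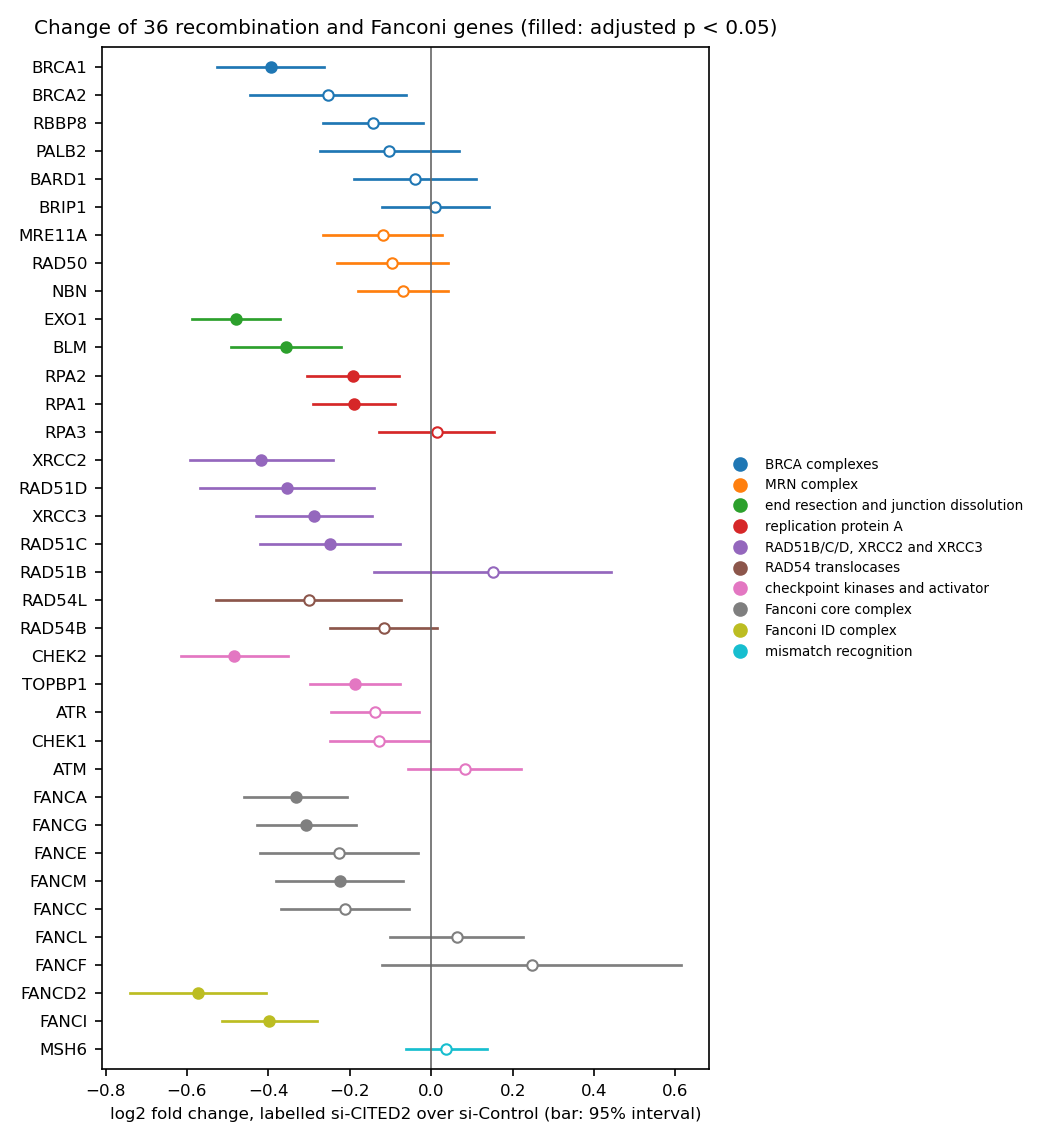
Log2 fold change of each of the 36 members (horizontal axis, libraries labelled si-CITED2 over si-Control) with its 95% interval, 3 libraries a group. Colors give the role of each gene, and filled points mark an adjusted p under 0.05; all 16 filled points lie left of 0, from −0.57 for FANCD2 to −0.19 for TOPBP1.

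Both members of the pair that receives the Fanconi signal fell. FANCD2, the ubiquitin acceptor that marks a stalled fork at a crosslink, was at 72.4, 90.6 and 93.6 CPM in si-Control. It was at 58.0, 58.3 and 55.8 CPM in the libraries labelled si-CITED2. The lowest control library was thus still above every library of the other group, and the controls were spread more widely (SD 11.5 against 1.40 CPM). The change was −0.57 on the log2 scale (SE 0.079, adjusted p = 6.64e-05), the largest fall of any member. FANCI, its ubiquitinated partner, was at 147, 157 and 167 CPM in si-Control. In the libraries labelled si-CITED2 it was at 118, 124 and 116 CPM. Its groups were also apart, with a log2 fold change of −0.40 (SE 0.055, adjusted p = 6.93e-05).

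In the core complex that acts as the ubiquitin ligase for that pair, 3 of 7 members fell. FANCA, a scaffold subunit, was at 78.1, 87.4 and 85.9 CPM in si-Control. It was at 69.8, 65.0 and 64.8 CPM in the libraries labelled si-CITED2, so that it fell by 20.6% (log2 fold change −0.33, SE 0.059, adjusted p = 0.000748). The groups did not overlap, although 23.6% of the annotated exon bases of FANCA are shared with ZNF276 on the other strand. FANCG, which binds FANCA, was at 69.3, 71.6 and 68.0 CPM in si-Control. It was at 54.5, 59.3 and 55.0 CPM in the libraries labelled si-CITED2 (log2 fold change −0.31, SE 0.057, adjusted p = 0.00104). FANCG fell by 19.2%, its groups did not overlap either, and FANCM, the translocase that recruits the core to DNA, passed narrowly.

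FANCM had a mean of 30.6 ± 2.32 CPM in si-Control and 26.1 ± 0.698 CPM in the libraries labelled si-CITED2 (SD, n = 3; edgeR adjusted p = 0.0457). Its call was lost in DESeq2 (adjusted p = 0.0742) and in 5 of the 6 fits that left out 1 library: 0.074 and 0.164 without si-Control replicates 1 and 3, and 0.0769, 0.0953 and 0.159 without replicates 1, 2 and 3 labelled si-CITED2. FANCC was at 35.2 ± 3.18 against 30.4 ± 0.691 CPM (adjusted p = 0.0594), passing without si-Control replicate 1 (adjusted p = 0.00842). FANCE gave a log2 fold change of −0.23 (95% interval −0.42 to −0.03, adjusted p = 0.105). FANCL, the subunit with the ligase activity, gave 0.06 (95% interval −0.10 to 0.22). FANCF, the adaptor of the core and the member with the fewest counts, was at 3.09, 2.67 and 2.95 CPM against 3.30, 3.12 and 3.91 CPM. Its values did not overlap, but the interval of the log2 fold change, −0.12 to 0.61, includes 0.

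At the step of end resection and junction dissolution, both members fell. EXO1, the nuclease that extends the resected strand, was at 101, 98.0 and 103 CPM in si-Control. It was at 73.3, 71.4 and 72.0 CPM in the libraries labelled si-CITED2. Replicates lay within a few CPM of each other in both groups, and EXO1, which fell by 28.3%, had the smallest adjusted p of all members (log2 fold change −0.48, SE 0.051, adjusted p = 4.08e-06). BLM, the helicase that dissolves double Holliday junctions, was at 40.9, 41.7 and 41.4 CPM in si-Control. It was at 34.2, 31.8 and 30.9 CPM in the libraries labelled si-CITED2 (log2 fold change −0.36, SE 0.064, adjusted p = 0.000728). Its lowest control library was above its highest library labelled si-CITED2. The MRN complex, which starts resection, gave no call among its 3 subunits: MRE11A gave a log2 fold change of −0.12 (95% interval −0.26 to 0.03), RAD50 −0.10 (−0.23 to 0.04) and NBN −0.07 (−0.18 to 0.04). For RAD50, 79.7% of the annotated exon bases overlap other genes, so reads of those genes may be among its counts.

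Among the BRCA complexes, 1 of 6 members fell. BRCA1, the tumor suppressor that promotes resection, was at 112, 120 and 124 CPM in si-Control. It was at 92.8, 95.6 and 82.5 CPM in the libraries labelled si-CITED2. These values did not overlap, and BRCA1 fell by 23.9% (log2 fold change −0.39, SE 0.062, adjusted p = 0.000231). BARD1, its obligate ubiquitin ligase partner, was at 30.7 ± 2.31 and 29.8 ± 0.235 CPM (SD, n = 3; log2 fold change −0.04, 95% interval −0.19 to 0.11). BRIP1, the helicase that binds the BRCT repeats of BRCA1, gave 0.01 (−0.12 to 0.14), and PALB2, the bridge to BRCA2, gave −0.10 (−0.27 to 0.07). The intervals of BARD1 and BRIP1 lie above the interval of BRCA1, −0.53 to −0.26; the difference between the genes was not tested.

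BRCA2, which acts after resection to prepare the strand for exchange, was at 45.7, 35.6 and 47.6 CPM in si-Control and at 37.6, 34.2 and 36 CPM in the libraries labelled si-CITED2. A single control library fell within the range of the other group, and the adjusted p was 0.0662 (log2 fold change −0.25, SE 0.091). Without that library, si-Control replicate 2, BRCA2 passed the test (log2 fold change −0.38, adjusted p = 0.0025). RBBP8, known as CtIP and the cofactor of MRN in resection, gave −0.14 (95% interval −0.27 to −0.02, adjusted p = 0.104).

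Of the 5 paralogs RAD51B, RAD51C, RAD51D, XRCC2 and XRCC3, which assist strand exchange, 4 fell. XRCC2 was at 28.98, 31.8 and 33.7 CPM in si-Control. It was at 22.1, 26.0 and 22.4 CPM in the libraries labelled si-CITED2, so that it fell by 25.1% (log2 fold change −0.42, SE 0.083, adjusted p = 0.00182). Its groups were apart. XRCC3 was at 32.0, 35.2 and 33.8 CPM in si-Control. It was at 27.0, 27.7 and 28.0 CPM in the libraries labelled si-CITED2 (log2 fold change −0.29, SE 0.067, adjusted p = 0.00645). The groups were apart here too, with the limit that 76.7% of annotated XRCC3 exon bases are shared with KLC1 on the other strand and the use of strand in the counting is not given in the sources used here.

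RAD51D, which pairs with XRCC2, was at 15.0, 19.2 and 17.9 CPM in si-Control. It was at 13.9, 13.3 and 13.6 CPM in the libraries labelled si-CITED2 (log2 fold change −0.35, SE 0.10, adjusted p = 0.0225). Its closest control library was only just above the other group, and the adjusted p was 0.146 and 0.0658 without si-Control replicates 2 and 3 and 0.0772 and 0.0662 without replicates 2 and 3 labelled si-CITED2. RAD51C, present in both paralog complexes, had means of 28.4 ± 1.07 and 24.0 ± 2.39 CPM (SD, n = 3; log2 fold change −0.25, edgeR adjusted p = 0.0437). Its call was lost in DESeq2 (adjusted p = 0.0618) and in 5 of 6 fits without 1 library: 0.112, 0.0902 and 0.0589 without si-Control replicates 1, 2 and 3, and 0.0713 and 0.223 without replicates 1 and 2 labelled si-CITED2. RAD51B gave 0.15 (95% interval −0.14 to 0.44). The translocases that act during strand exchange did not pass: RAD54L gave −0.30 (95% interval −0.53 to −0.07, adjusted p = 0.0656) and RAD54B −0.12 (−0.25 to 0.01). Their exon bases overlap other genes too, LRRC41 for 25.1% of RAD54L and FSBP for 59.1% of RAD54B.

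**Figure D2:**
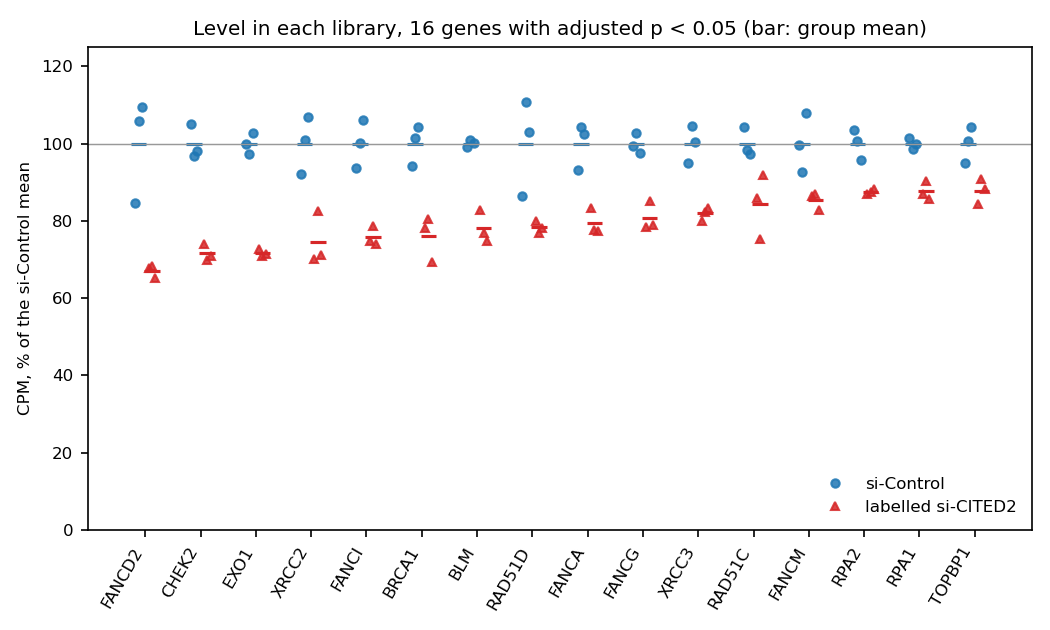
Level of the 16 called members in each library as a percentage of the si-Control mean (vertical axis, starting at 0), ordered by log2 fold change; circles are the 3 si-Control libraries, triangles the 3 labelled si-CITED2, and short bars the group means. All triangles lie below all circles of the same gene.

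Replication protein A, the heterotrimer that coats single-stranded DNA, had 2 of its 3 subunits lower. RPA1, the large subunit, was at 164, 160 and 162 CPM in si-Control. It was at 141, 146 and 139 CPM in the libraries labelled si-CITED2 (log2 fold change −0.19, SE 0.047, adjusted p = 0.00991; 0.0666 without the library labelled si-CITED2 replicate 3). The groups were apart by more than their spread, and RPA1 fell by 12.4%. RPA2, the subunit that the damage kinases phosphorylate, was at 84.3, 82.0 and 78.1 CPM in si-Control. It was at 70.8, 71.3 and 71.9 CPM in the libraries labelled si-CITED2 (log2 fold change −0.19, SE 0.053, adjusted p = 0.0189). Without si-Control replicate 2 the adjusted p of RPA2 was 0.0683, and without replicates 2 and 3 labelled si-CITED2 it was 0.0674 and 0.0637. RPA3, the small subunit, was at 42.1 ± 3.34 and 42.5 ± 0.650 CPM (SD, n = 3; log2 fold change 0.01, 95% interval −0.13 to 0.15).

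Among the damage kinases and their activator, 2 of 5 fell. CHEK2, the effector kinase downstream of ATM, was at 51.5, 47.5 and 48.2 CPM in si-Control. It was at 36.3, 34.2 and 34.8 CPM in the libraries labelled si-CITED2. The gap between the groups was several times the SD within them, and CHEK2 fell by 28.5% (log2 fold change −0.48, SE 0.062, adjusted p = 3.06e-05). The annotation lists 4 pseudogenes of CHEK2, 3 of RPA2 and 1 of FANCD2, with which reads may be shared. TOPBP1, the activator of ATR, was at 143, 152 and 158 CPM in si-Control. It was at 127, 137 and 133 CPM in the libraries labelled si-CITED2 (log2 fold change −0.19, SE 0.053, adjusted p = 0.0208). Its groups were apart, but the adjusted p was 0.0747 and 0.0821 without si-Control replicates 2 and 3 and 0.069 and 0.0674 without replicates 1 and 3 labelled si-CITED2.

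ATM, the kinase upstream of CHEK2, did not pass the test: it was at 121 ± 10.99 CPM in si-Control and 128 ± 8.26 CPM in the libraries labelled si-CITED2 (SD, n = 3; log2 fold change 0.08, 95% interval −0.06 to 0.22). ATR, the kinase that senses single-stranded DNA, gave −0.14 (−0.25 to −0.03, adjusted p = 0.0732), and CHEK1, its effector, gave −0.13 (−0.25 to −0.01, adjusted p = 0.152). MSH6, a mismatch recognition protein counted among the members, was at 291 ± 4.86 and 299 ± 10.1 CPM (SD, n = 3; log2 fold change 0.04, 95% interval −0.06 to 0.14). Of the 20 members without a call, 13 had 95% intervals that excluded a fall of 1.2-fold (a log2 fold change of −0.26); the other intervals leave room for one.

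Divided by transcript length, the members ranged widely in level. RBBP8 was highest at 81.3 ± 3.59 CPM per kb of its longest coding transcript in si-Control (SD, n = 3), followed by RPA2 at 46.5 ± 1.81, MSH6 at 38.96 ± 0.650, RPA1 at 37.3 ± 0.507 and FANCI at 33.1 ± 2.07 CPM per kb. MSH6 and RPA1 were apart by more than their SDs, by a small margin. Those SDs do not cover the choice of transcript length (7476 bases for MSH6, 4340 for RPA1), so the order of these genes is not settled. At the low end were BRCA2 at 3.58 ± 0.539, RAD51B at 2.48 ± 0.175, RAD51D at 1.74 ± 0.216 and FANCF at 0.983 ± 0.0737 CPM per kb. The length used for RAD51D was 9988 bases, against 2596 for RAD51B and 2591 for RAD51C, so its place in this order depends on that length. Members that fell were found along this order, from RPA2 near the top to FANCM (4.30 ± 0.326 CPM per kb) and RAD51D near the bottom.

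The wider pathway was described by 71 further recombination and Fanconi genes, 68 of which were tested. Of these, 18 were lower (26.5%) and 3 were higher, with a median log2 fold change of −0.07. The largest falls were in POLQ, the polymerase of microhomology-mediated joining (52.7 ± 2.32 to 36.2 ± 4.02 CPM, log2 fold change −0.55, adjusted p = 6.64e-05), and ATRIP, the partner of ATR (18.0 ± 1.04 to 12.5 ± 2.44 CPM, −0.52, adjusted p = 0.00481). SFR1 (−0.49), the helicase RECQL4 (−0.47), the histone H2AFX (−0.45) and the strand exchange cofactor RAD51AP1 (−0.40) followed. The 3 that were higher, named after their values were seen, were the nuclease subunit ERCC1 (log2 fold change 0.20), the helicase RECQL (0.21) and SHFM1 (0.18), the small partner of BRCA2. This count of 3 became 1 without si-Control replicate 2, 0 without replicate 2 labelled si-CITED2 and 1 without replicate 3 labelled si-CITED2.

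End joining and mismatch repair genes were counted in the same way. POLQ, which acts in a form of end joining, was counted above with the recombination genes (log2 fold change −0.55) and not here. Of 16 end joining genes, 2 were lower, XRCC1 (log2 fold change −0.21) and XRCC6 (−0.16), the median was −0.06, and 0 were higher in edgeR or DESeq2 (0 higher at an unadjusted p under 0.05). The 2 calls became 0 without si-Control replicate 2, 1 without replicate 2 labelled si-CITED2 and 0 without replicate 3 labelled si-CITED2. Of the 6 mismatch repair partners of MSH6, 0 were called by edgeR or DESeq2, 1 was lower and 0 higher at an unadjusted p under 0.05, and the median was −0.08.

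Genes of the cell cycle fell alongside the members. In its own cell counts and MTT assays, not analysed here, the study saw no effect of CITED2 on growth or viability. Of 39 S phase genes, 30 were lower (76.9%) and 2 were higher, with a median log2 fold change of −0.28. The 4 that changed most were CCNE1, the G1/S cyclin, which was higher (24.6 ± 0.707 to 41.7 ± 3.36 CPM, log2 fold change 0.76, adjusted p = 9.26e-07), and the replication helicase factor CDC45 (−0.66), the nucleotide reductase subunit RRM2 (−0.64) and the repressor E2F8 (−0.57), which were lower. E2F3, named after its value was seen, was the other higher gene (0.24). The count of 2 higher genes became 1 without si-Control replicates 2 or 3 or replicates 2 or 3 labelled si-CITED2. Which gene lost its call in those fits was not recorded. Of 22 G2 and M phase genes, 22 were lower in edgeR and 21 in DESeq2, 0 were higher in either, also at an unadjusted p under 0.05, and the median was −0.40, with KIF20A (−0.52), AURKA (−0.51), BUB1B (−0.49) and TOP2A (−0.47) changed most.

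**Figure D3:**
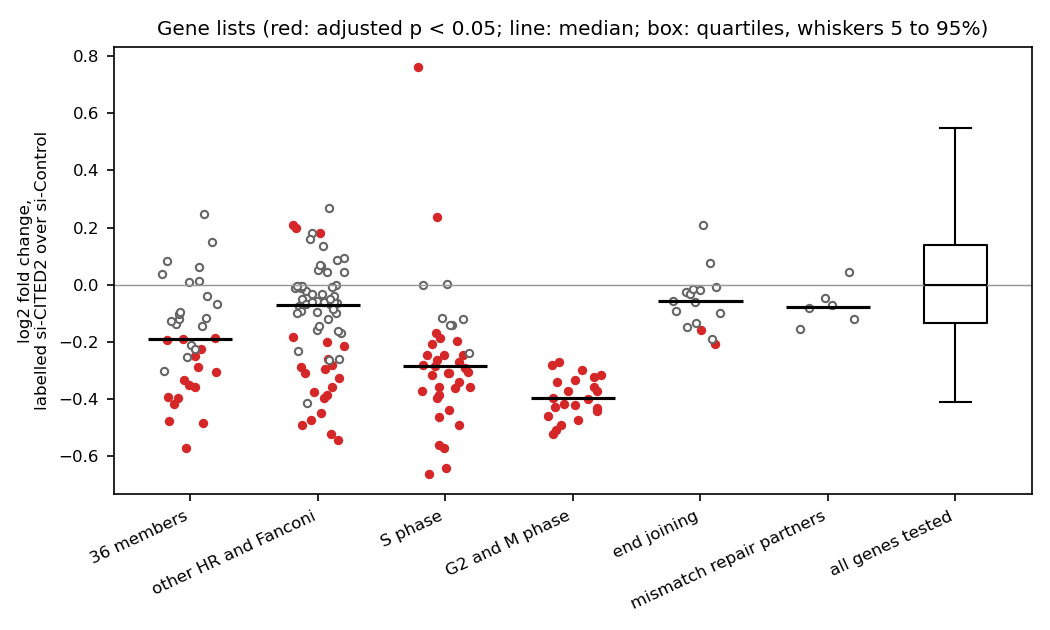
Log2 fold change (vertical axis, libraries labelled si-CITED2 over si-Control) of the genes of each list; red points have an adjusted p under 0.05, black lines are medians, and the box gives quartiles of all 16314 genes tested with whiskers from 5 to 95%. The median of the members, −0.19, lies between those of the other recombination genes, −0.07, and the S phase genes, −0.28.

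Between the group means, the summed levels of these lists fell in the same order as their medians. The 36 members summed to 2642, 2631 and 2752 CPM in si-Control and to 2361, 2371 and 2351 CPM in the libraries labelled si-CITED2, and the groups did not overlap. The means were 2675 ± 66.9 and 2361 ± 9.85 CPM (SD, n = 3), so that the sum fell by 11.7%. The S phase genes summed to 4557 to 4610 CPM and 3636 to 3814 CPM, and fell by 18.5%. The G2 and M phase genes summed to 6381 to 6769 CPM and 4841 to 5024 CPM, and fell by 24.96%. The part of the cell cycle change in the change of the members was not tested.

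**Figure D4:**
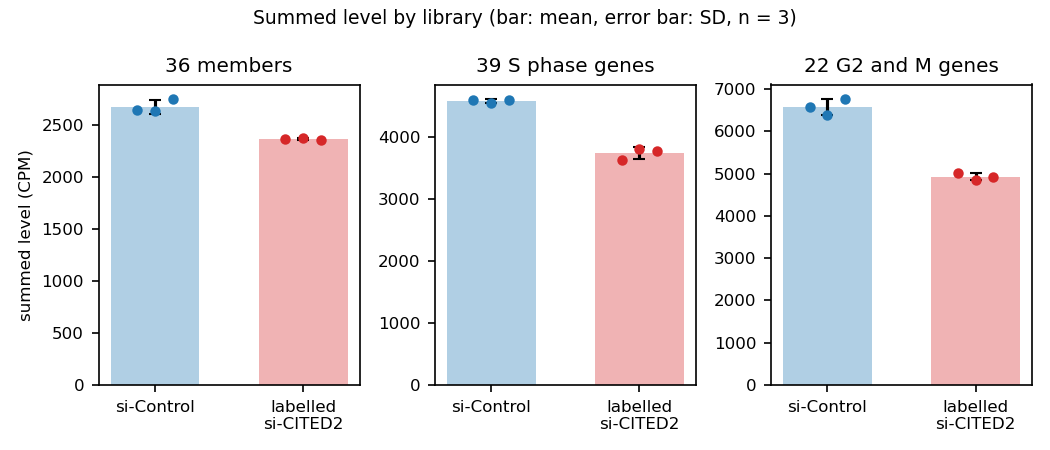
Summed level in CPM (vertical axes, each starting at 0) of the members, the S phase genes and the G2 and M phase genes; bars are means, error bars SDs and points the 3 libraries of each group. The members fell from 2675 to 2361 CPM on average, and in all 3 panels the groups do not overlap.

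Promoter letters were counted because many recombination genes are known E2F targets. Of the 36 members, 31 had entries in RefSeq (GRCh38.p14); RPA2, RPA3, FANCI, NBN and RAD54B had none. In the 250 bases before any listed start, on either strand, the E2F letters TTCCCGC, a form of them that reads TTGGCGC or a further form that reads TTCGCGC occurred in 10 of 31 members (32.3%), beside 17.7% of 12123 tested genes and 11.2% of all 27305 genes with an entry. They occurred in 6 of 14 called members and in 4 of 17 others, so matches were found on both sides of the call. Genes with several listed starts have more windows in which to match. The matches of the 6 called members are shown with 10 bases on each side, in the direction of the gene, with the motif in capitals as it reads on that strand.
BRCA1, chr17:43125395-43125421, minus strand: acggaaaagcGCGGGAAttacagataa
BLM, chr15:90717262-90717288, plus strand: gcctgaggggGCGGGAAcagatgtccg
RPA1, chr17:1829826-1829852, plus strand: ggcgcgccccTTGGCGCcccgctccgc
RAD51D, chr17:35119802-35119828, minus strand: ggctctgggcGCGGGAAtcccggcgga
TOPBP1, chr3:133661935-133661961, minus strand: ggccgcgcggTTGGCGCgaaagtcggt
FANCG, chr9:35080010-35080036, minus strand: ctcggtggaaGCGGGAAcccaggagga
BRCA1, BLM, RAD51D and FANCG held the letters TTCCCGC on the reverse strand, within 47 to 84 bases of the start, and RPA1 held TTGGCGC at 169 bases. The match in BLM overlaps a GC box. TOPBP1 held a second match, TTCGCGC, that overlaps the one shown. CCAAT occurred in 15 of 31 members (48.4%, beside 40.7% of tested genes), GGGCGG in 22 (71.0%, beside 71.7%) and the cell cycle element TTTGAA in 3 (9.68%, beside 12.1%).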

How the data were processed

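Each library has 1 table of counts by gene symbol, which the authors deposited without normalization. The submitters' processing notes name TopHat, edgeR and hg19; the annotation, counter and use of strand are not given in the sources used here. Each table held 25737 rows; where a symbol had several, the row with most counts was kept (1275 rows left out, 0.0821% of counts). Libraries were grouped by their labels, 3 against 3. Totals of 19508925 to 28936374 counts limit precision, as does the number of libraries; floors of 3 counts cover counting error only.

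Counts were analyzed in R 4.3.3 with edgeR 4.0.16: filterByExpr (16314 genes kept), TMM, glmQLFit and glmQLFTest without a replicate block, with Benjamini-Hochberg adjustment over all genes tested and a threshold of 0.05. The common biological coefficient of variation was 0.0614. CPM use TMM-scaled library sizes. SE and 95% intervals derive from the same fit. Replicates of a group differed by more than counting noise (chi-square over its degrees of freedom, 2.89 to 7.53). The script was tested on simulated data. Alternatives were DESeq2 1.42.0, RLE factors, no TMM, other filters, summed rows, a fold limit of 1.2, a replicate block and leaving out each library.

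The members and lists were chosen with earlier results of these data known. All members may be named, with every library's value for the 14 with the smallest adjusted p under 0.05, and at most 4 genes (6 for other recombination genes) with the largest change from each list. Overlaps, pseudogenes and lengths come from GENCODE 29 (GRCh38), a different build from the counts, and upstream sequences from RefSeq. Some marker results are not reported here.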

Additional observations from a re-analysis of the deposited data

How the results depend on the processing

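Among CITED2 and the members, no log2 fold change that passed its test changed sign in any of the 14 alternatives. Other genes were not followed singly across them. EXO1, CHEK2 and FANCD2 passed in all 14, and BRCA1, BLM, FANCA, FANCG, FANCI, XRCC2 and XRCC3 in 13, failing only the test against a fold limit of 1.2. That stricter test left 3 members lower, 3 lower and 0 higher among the other recombination genes, 0 lower end joining genes, 6 lower and 1 higher among the S phase genes and 11 lower G2 and M phase genes, with an adjusted p of 1 for CITED2 (log2 fold change 0.24); fewer calls follow from its construction. The members called lower numbered 14 in DESeq2, 19 without TMM, 18 without the filter, 16 with RLE factors, with at least 10 counts in every sample or with summed rows, and 11 to 15 with 1 library left out. Members called higher numbered 0 throughout. Without TMM, FANCC, BRCA2 and ATR passed (adjusted p = 0.0458, 0.0454 and 0.0452) and CITED2 did not (log2 fold change 0.22); without the filter FANCC and BRCA2 passed (0.0474 and 0.0208). With 1 library left out, CITED2 ran from 0.17 to 0.29 on the log2 scale, the other recombination genes called higher from 0 to 4, lower end joining genes from 0 to 2 and higher S phase genes from 1 to 2. The cause of these shifts was not tested. Same-numbered libraries did not deviate together (correlations −0.04, 0.03 and −0.01). The counts thus showed no pairing by number, but such correlations cannot show whether the experiments were run in pairs. With a replicate block in edgeR, 15 members were lower. RAD51C and FANCM did not pass with the block (adjusted p = 0.0517 and 0.0736), and BRCA2 did (0.0422). The other recombination genes then gave 16 lower and 2 higher, and the S phase genes 28 lower. Members with few counts, such as FANCF, had the widest intervals, and changes of their size are not resolved at this depth.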

Other observations

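Several members share a bidirectional start region with a gene on the other strand, within 1000 bases in RefSeq, and the neighbors were looked up after the values of the members were seen. HSCB, which starts next to CHEK2, was at 12.6 and 12.3 CPM in the si-Control libraries and those labelled si-CITED2 (log2 fold change −0.04, SE 0.11), beside −0.48 for CHEK2. SMYD4, next to RPA1, gave 0.00072 (SE 0.074), beside −0.19. ZFYVE21, next to XRCC3, gave 0.01 (SE 0.070), beside −0.29. NBR2, next to BRCA1, gave 0.04 (SE 0.15), beside −0.39, and NBR1, at another listed start of BRCA1, was higher (0.26, SE 0.047, adjusted p = 0.000897). For members that did not pass, NPAT next to ATM gave 0.01, ANKRD49 next to MRE11A 0.02 and DCTN5 next to PALB2 0.13. The difference within each pair was not tested, and several pairs overlap on opposite strands.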
